A study of Homo sapiens with 6 samples.

Results

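The genes described here are 39 genes of oxidant defence and oxidant production, chosen by name: the transcription factor NRF2 (gene NFE2L2), its inhibitor KEAP1 and its competitor BACH1, and the enzymes of haem and quinone metabolism, glutathione, thioredoxin, superoxide and peroxide removal, iron storage and carbonyl reduction, together with the NADPH oxidase genes NOX4 and CYBA. Of these, 38 had a row in the count table of 31831 genes and 36 passed the low-count filter that kept 17142 genes for testing. NOX4 had no row and was not analysed here, and AKR1C2 and GPX2 were counted in too few libraries to be tested. The study asked how gene expression in HK-2 cells, a cell line from human proximal tubule, changes when the RNA-binding protein hnRNP-F is overexpressed in high glucose. By the study's methods, all cells were kept in 30 mM glucose for 72 h and all carried a lentiviral vector. The HG-NC group carried the empty vector and the HG-OE group carried the hnRNP-F construct, with 3 RNA-seq libraries in each group. The methods speak of biological replicates and of wells run in parallel, and separate infections are not stated, so the p-values measure the spread between these libraries.

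In unstressed cells NRF2 is bound by KEAP1, which hands it to a ubiquitin ligase for degradation. Oxidants and electrophiles modify KEAP1, NRF2 then accumulates, pairs with a small MAF protein and binds the antioxidant response element of its target genes, where BACH1 competes for the same site. The targets rebuild glutathione and reduced thioredoxin, the electron sources for the enzymes that remove peroxides, and in the proximal tubule, a tissue with high mitochondrial oxygen use, this system is a standard readout of oxidant stress. NRF2 itself is regulated largely at the protein level, which was not measured in these libraries.

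The short core of the antioxidant response element, TGACNNNGC, was looked for on both strands of the promoters of the genes, from 250 bases before to 50 bases after the start of transcription, because this is the letter pattern that NRF2 and BACH1 recognise. The RefSeq promoter table (GRCh38.p14) held 47 entries for 30 of the 39 genes. The core was found in 5 of these entries (10.6%), against 13.3% of all 35116 promoters of the same length, and the genes with a match were GCLM, TXNRD1, GPX2 and KEAP1. The form TGACTCAGC, of the same length but with the open letters of the core fixed, was found in none of the 47 entries and in 0.561% of all promoters. The matches are shown as 30 bases in the direction of the gene, with the core in capitals. The core reads as its reverse complement where it lies on the opposite strand.
GCLM, chr1:93909445-93909474, gene on the minus strand: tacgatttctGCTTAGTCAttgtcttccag
TXNRD1, upstream start site, chr12:104215670-104215699, gene on the plus strand: acacgggctaTGACTTCGCtgttgtcaccg
TXNRD1, upstream start site, chr12:104215761-104215790, gene on the plus strand: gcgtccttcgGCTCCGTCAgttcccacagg
TXNRD1, downstream start site, chr12:104286920-104286949, gene on the plus strand: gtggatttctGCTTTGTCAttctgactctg
GPX2, chr14:64942848-64942877, gene on the minus strand: acctgtttttGCTAAGTCAtcctggggatg
KEAP1, chr19:10502806-10502835, gene on the minus strand: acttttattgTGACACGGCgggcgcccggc
KEAP1, chr19:10502783-10502812, gene on the minus strand: gcccggctctGCTTAGTCAtggtgacctgc
The core of GCLM and the second core of KEAP1 have the same letters. A match describes letters and not binding, and elements outside this window were not searched.

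The libraries held 25507595 to 29444841 counted read pairs, and 1.28% to 1.49% of these fell on the 38 genes. HG-OE replicate 3 stood apart from the other libraries. Over 12376 well-counted genes, its counts differed from those of the other HG-OE libraries by a chi-square of 11.8 and 12.3 per gene, against 2.37 to 4.10 between the other libraries of a group, so no library was a repeat of another. Of 5 hepatocyte markers, 4 had their highest count in HG-OE replicate 3, among them ALB with 4359 counts against at most 78 elsewhere. APOA1 and TTR had at most 6 counts in the other libraries. The summed level of the list was 263 to 276 CPM in HG-NC and 461, 463 and 580 CPM in the HG-OE libraries. Most of this sum was SERPINA1, with 275, 264 and 258 CPM in HG-NC and 457, 458 and 395 CPM in HG-OE. Among the HG-OE libraries, SERPINA1 was thus lowest in replicate 3. Of 5 squamous epithelial markers, all 5 were highest there, with a summed level of 46.8 CPM against 0.0358 to 0.103 CPM in the other libraries, where KRT5, KRT6A and KRT14 were at 0. Of 11 proximal tubule markers 9 had a row, 4 of them under 1 CPM in every library, and the summed level was 4.84 to 7.28 CPM in HG-NC, at most 6.59 CPM in HG-OE replicates 1 and 2, and 23.5 CPM in replicate 3. Of the 9, 4 were highest in HG-OE replicate 3, among them the transcription factor HNF4A, the endocytic receptor LRP2 and the peptidase ANPEP, with 323 counts of HNF4A there and 0 in the other 5 libraries. CUBN was lowest there, and SLC34A1, SLC5A2, AQP1 and GGT1 lay within the range of the other libraries. Of 5 renal epithelial markers, KRT8, KRT18 and CDH1 were highest in that library, and KRT8 had 293 to 299 CPM in HG-NC and 629, 653 and 983 CPM in HG-OE. PAX8, the renal lineage factor, went the other way, from 603 to 655 CPM in HG-NC to 462, 472 and 408 CPM in HG-OE, and EPCAM was lower in HG-OE as well. Of the leukocyte, endothelial and fibroblast markers, 3 of 4, 1 of 3 and 2 of 4 were highest in HG-OE replicate 3. The part of these markers in the results for the antioxidant genes was not tested. Values without HG-OE replicate 3 are given where leaving it out changed the call of a named gene, or moved its called value or a printed count of calls by over 1.5 times, and for some further genes. HNRNPF itself rose in HG-OE by 0.48 on the log2 scale (standard error, SE, 0.0388).

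Differences are given as the log2 fold change of HG-OE over HG-NC from edgeR's quasi-likelihood test, and the calls below are those with an adjusted p (Benjamini-Hochberg over all 17142 genes) under 0.05. Of the 36 genes tested, 25 were called (69.4%), beside 51.8% of all genes tested and 61.9% of the 12365 genes with a mean of at least 100 counts. Called higher were 18 of the 36, beside 25.9% of all genes, and called lower were 7, also beside 25.9% of all genes. Without HG-OE replicate 3, 18 were higher and 10 lower. At least a 2-fold change was reached by 2 of them, AKR1C1 and AKR1C3, or 5.56% beside 5.82% of all genes. The groups did not overlap in CPM for 25 of the 36, beside 59.0% of all genes, and these were the same genes as those called. The median log2 fold change of the 36 was 0.10, against 0.011 over all genes tested. For a gene whose groups do not overlap, the exact two-sided permutation test gives p = 0.1, the smallest value that 3 libraries against 3 allow. In bulk RNA, fewer cells with a transcript cannot be told apart from less of it per cell.

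**Figure D1:**
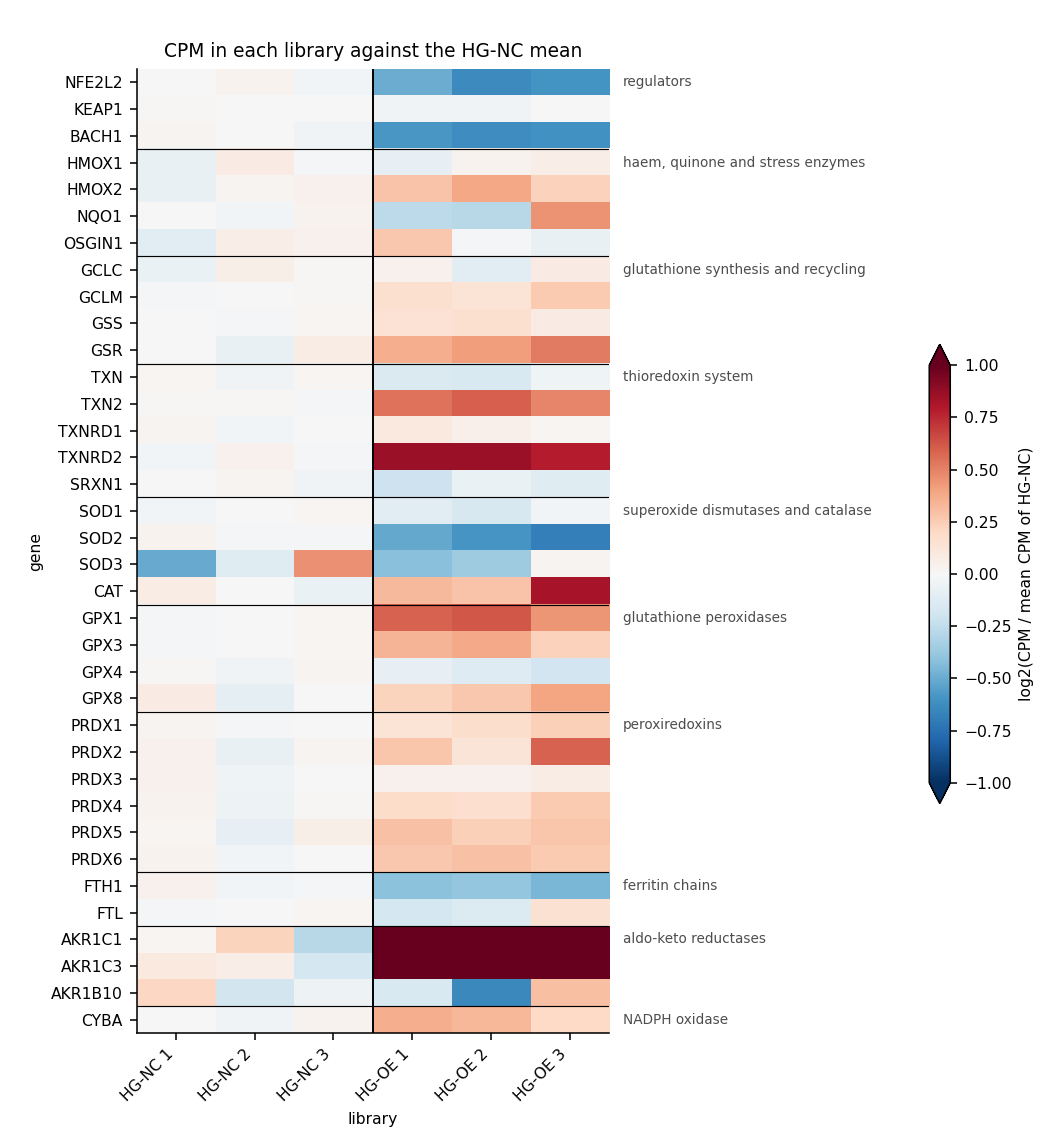
Colour gives the log2 ratio of each gene's CPM to its HG-NC mean (red higher, blue lower, colours saturating at 1 and -1) for the 36 genes tested in the 6 libraries, ordered by role. NFE2L2, BACH1, SOD2 and FTH1 are blue in all 3 HG-OE libraries, TXNRD2, GPX1 and TXN2 are red in all 3, and NQO1, FTL and AKR1B10 are blue in HG-OE replicates 1 and 2 and red in replicate 3.

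The genes span a wide range of levels. By FPKM, the deposited level per transcript length, the ferritin chains FTH1 and FTL led in HG-NC with 1891 ± 47.4 and 1829 ± 34.1 FPKM (mean ± SD, n = 3 libraries, as elsewhere), followed by PRDX1 with 626 ± 8.88 and TXN with 342 ± 7.79. At the other end stood AKR1B10 with 1.27 ± 0.173, SOD3 with 0.817 ± 0.286 and AKR1C1 with 0.197 ± 0.0351 FPKM, and GPX2 and AKR1C2 were listed at 0. In HG-OE the order of the leading pair turned, with 1751 ± 226 FPKM for FTL and 1400 ± 35.7 for FTH1. FTH1 was above FTL in all 3 HG-NC libraries, where the ranges of both overlap, and below FTL in all 3 HG-OE libraries, where they do not. SOD2 had 170 ± 3.08 FPKM in HG-NC, level with PRDX5 at 171 ± 9.22, and in HG-OE it had 111 ± 6.83 while PRDX5 had 204 ± 5.14. In CPM, which are not divided by length, SOD2 had 3439 ± 67.6 and PRDX5 164 ± 8.48 in HG-NC. The order of genes by FPKM therefore depends on the length assigned to each gene, which is not given.

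**Figure D2:**
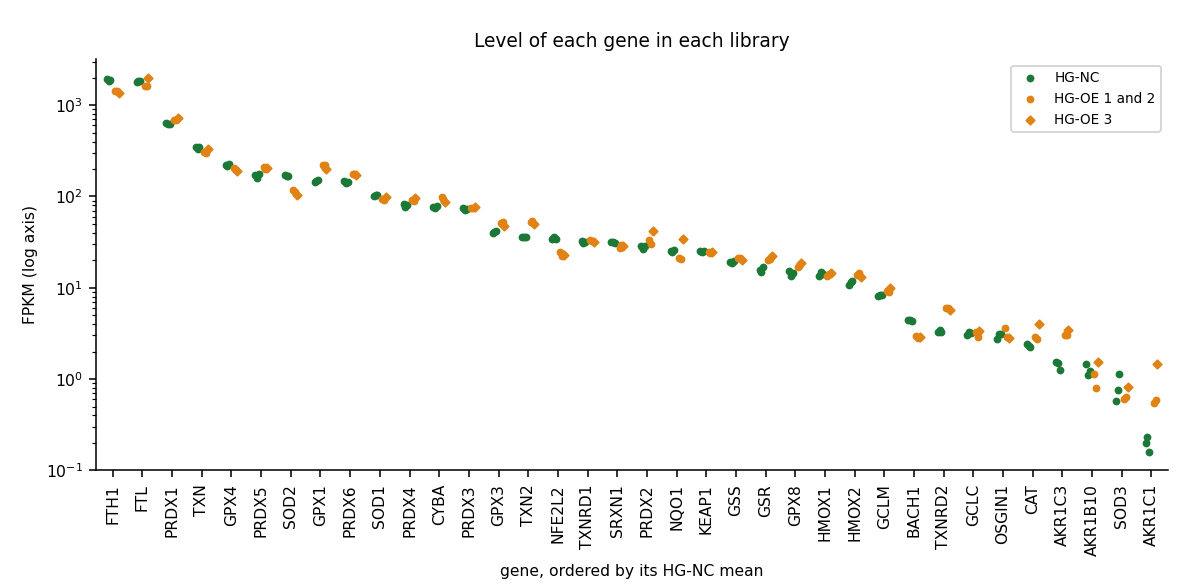
FPKM of each of the 36 genes tested (log axis) in every library, with genes ordered by their HG-NC mean, HG-NC in green, HG-OE in orange and HG-OE replicate 3 as diamonds. Levels run from about 1891 FPKM for FTH1 to 0.197 FPKM for AKR1C1 in HG-NC, and the distances between the groups are small beside the distances between genes.

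The counts of FTH1, SOD2, FTL and PRDX1 together made up 71.9% to 72.4% of all counts on these genes in HG-NC and 65.6% to 65.9% in HG-OE. The genes as a whole took 1.46% to 1.49% of each HG-NC library and 1.28% to 1.30% of each HG-OE library. All HG-OE libraries were below all HG-NC libraries in this total. With FTH1 and SOD2 left out, the order was reversed. The remaining genes took 0.706%, 0.699% and 0.713% of the HG-NC libraries and 0.731%, 0.731% and 0.778% of the HG-OE libraries.

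Among the regulators, NFE2L2 and BACH1 were lower in HG-OE and KEAP1 was not called. NFE2L2 (ENSG00000116044.16, chromosome 2, 177218667 to 177392756 on GRCh38) had 220, 226 and 217 CPM in HG-NC replicates 1, 2 and 3 and 157, 142 and 146 CPM in the HG-OE replicates. Each of these lay below all HG-NC libraries, with means of 148 ± 7.40 and 221 ± 4.65 CPM. The log2 fold change was -0.57 (SE 0.0432, adjusted p = 1.63e-07), or 0.672 times the HG-NC level. The 69 genes that neighbour it within 10 Mb had a median of -0.31, relative to which NFE2L2 stood at -0.27. BACH1 (ENSG00000156273.16, chromosome 21, 29194071 to 29630751) had 982, 1031 and 1034 counts in HG-NC and 735, 717 and 730 in HG-OE, again without overlap. BACH1 stood at -0.60 on the log2 scale (SE 0.0533, adjusted p = 6.89e-07), and its 58 neighbours had a median of -0.24. KEAP1, the adaptor that marks NRF2 for degradation, had 2558, 2698 and 2796 counts in HG-NC and 2838, 2848 and 2932 in the larger HG-OE libraries. These gave 100 ± 0.467 CPM and 98.6 ± 1.33 CPM, a log2 fold change of -0.022 with a 95% interval from -0.10 to 0.06 (adjusted p = 0.655). The activator and the repressor of the same response element were both lower, by amounts whose intervals (-0.67 to -0.48 and -0.72 to -0.49) overlap.

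Among partners of NRF2 outside the 39 genes, calls were about as frequent as over all genes. Of 10 genes for NRF2 relatives, small MAF proteins and the degradation machinery, all of them tested, 4 were higher and 2 lower, with and without HG-OE replicate 3, beside 51.8% called and 25.9% in each direction over all genes. The related factor NFE2L3 (0.52), the ubiquitin ligase subunit RBX1 (0.50) and the autophagy adaptor SQSTM1 (0.25), which takes KEAP1 away from NRF2, rose the most. The medians of their neighbours within 10 Mb were -0.055, 0.32 and 0.47. Relative to these, NFE2L3 stood at 0.57, RBX1 at 0.17 and SQSTM1 at -0.22. The small MAF genes MAFG (-0.47) and MAFF (-0.27) fell. The small MAF gene MAFK was also called, at 0.15 (adjusted p = 0.0310), with CPM that overlapped between the groups.

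The NRF2 targets HMOX1, NQO1 and OSGIN1 were not called with all libraries, while NFE2L2 was called lower. They are among the 15 tested genes known as NRF2 targets, of which 5 were called higher and 3 lower. Over all genes, 25.9% were called in each direction. HMOX1, the inducible haem oxygenase that splits haem into biliverdin, iron and carbon monoxide, had 34.6, 38.6 and 36.1 CPM in HG-NC against 34.4, 37.3 and 38.1 CPM in HG-OE. The means of 36.5 ± 1.98 and 36.6 ± 1.94 CPM differed by less than the spread between libraries, with a log2 fold change of 0.0059 (SE 0.0601, adjusted p = 0.942, 95% interval -0.12 to 0.14). HMOX1 lies on chromosome 22, where the median over 418 genes was 0.31, and relative to its 185 neighbours (median 0.27) it stood at -0.27. The constitutive haem oxygenase HMOX2 was higher, with 1042, 1192 and 1240 counts against 1527, 1639 and 1478 counts, which gave 43.1 ± 1.87 and 53.1 ± 2.95 CPM without overlap. The log2 fold change of HMOX2 was 0.30 (SE 0.0563, adjusted p = 5.19e-04), and 0.078 after subtracting the median of its 158 neighbours. OSGIN1, a growth inhibitor induced by oxidative stress, had 18.5 ± 1.25 CPM in HG-NC against 19.5 ± 2.55 CPM in HG-OE and was not called (0.072, 95% interval -0.13 to 0.27).

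NQO1, the quinone reductase that is the classic NRF2 target, depended on HG-OE replicate 3. Its counts were 2132, 2229 and 2415 in HG-NC and 2035, 2019 and 3372 in HG-OE, that is 83.8, 82.4 and 86.4 CPM against 70.1, 69.3 and 115 CPM. HG-OE replicates 1 and 2 lay below every HG-NC library and replicate 3 lay above every one, at 1.65 times the mean of the other HG-OE libraries. Over all 6 libraries the log2 fold change was 0.012 (SE 0.142, adjusted p = 0.953). Without HG-OE replicate 3 it was -0.27 (adjusted p = 3.34e-06), so the call and its direction differ with that library.

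In glutathione metabolism, 3 of 4 genes were higher and none was lower, beside 25.9% of all genes called in each direction. Glutathione is made in a first step by glutamate-cysteine ligase, a dimer of the catalytic subunit GCLC and the modifier subunit GCLM, and in a second by glutathione synthetase, GSS, and its oxidised form is reduced by GSR at the cost of NADPH. The catalytic subunit GCLC had 29.1, 31.7 and 30.7 CPM in HG-NC against 31.4, 28.2 and 32.3 CPM in HG-OE, which overlap, with a log2 fold change of 0.0057 (95% interval -0.13 to 0.14). The modifier subunit GCLM had 49.9, 50.3 and 50.8 CPM in HG-NC against 56.3, 55.4 and 60.4 CPM in HG-OE, which do not overlap, for a rise of 0.19 (SE 0.0495, adjusted p = 0.00573). GSS rose by 0.13 (SE 0.0392, adjusted p = 0.0144), less than the median of 0.18 over its 122 neighbours. The call of GSS was lost without the low-count filter, without HG-NC replicate 2 and without HG-OE replicate 2. GSR rose the most of the group, from 63.7, 60.7 and 67.1 CPM to 81.9, 85.2 and 91.6 CPM. The log2 fold change of GSR was 0.43 (SE 0.0532, adjusted p = 1.36e-05), and the median of its 83 neighbours was 0.0013.

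In the thioredoxin system the mitochondrial enzymes rose, and of the cytosolic ones TXN and SRXN1 fell and TXNRD1 was not called. TXNRD2 (ENSG00000184470.21, chromosome 22, 19875517 to 19941820), the mitochondrial thioredoxin reductase, had 760, 853 and 843 counts in HG-NC and 1613, 1617 and 1537 in HG-OE. This is 30.5 ± 0.870 against 54.5 ± 1.78 CPM, a log2 fold change of 0.84 (SE 0.0520, adjusted p = 2.85e-08), or 1.79 times. TXN2, mitochondrial thioredoxin, on the same chromosome at 36467046 to 36481640, had 67.0, 67.0 and 65.7 CPM in HG-NC against 96.8, 101 and 93.5 CPM in HG-OE. The groups stood far apart, at 0.55 (SE 0.0439, adjusted p = 2.93e-07). Both genes have neighbours that were higher as well, with medians of 0.30 over 109 genes for TXNRD2 and 0.28 over 192 genes for TXN2, and relative to these they stood at 0.53 and 0.27. TXN, the cytosolic thioredoxin, had 391, 377 and 391 CPM in HG-NC against 350, 347 and 375 CPM in HG-OE. The lowest HG-NC library and the highest HG-OE library nearly met, and its fall of 0.11 (log2 fold change -0.11, adjusted p = 0.0314) missed the threshold in 6 of 14 refits under other settings. SRXN1, which reactivates overoxidised peroxiredoxins, fell by 0.13 (log2 fold change -0.13, adjusted p = 0.0303) and missed it in 4 of them. TXNRD1, the cytosolic reductase with the response element cores printed above, had 237 ± 4.63 and 247 ± 7.07 CPM and was not called (0.056, adjusted p = 0.243).

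Among the enzymes for superoxide and hydrogen peroxide, SOD2 was lower, CAT was higher, and SOD1 and SOD3 were not called. SOD2 (ENSG00000112096.19, chromosome 6), the mitochondrial manganese superoxide dismutase and also an NF-kB target, had 3516, 3388 and 3414 CPM in HG-NC against 2406, 2291 and 2141 CPM in HG-OE. Every HG-OE library lay far below every HG-NC library, at 0.663 times the level (log2 fold change -0.59, SE 0.0400, adjusted p = 6.17e-08). SOD1, the cytosolic copper-zinc enzyme, had 222, 227 and 230 CPM in HG-NC against 209, 203 and 222 CPM in HG-OE. HG-OE replicate 3 met the lowest HG-NC library there, and the log2 fold change was -0.098 (adjusted p = 0.0624) with all libraries and -0.14 (adjusted p = 0.00247) without that replicate. SOD3, the secreted enzyme, had only 33 to 71 counts per library and an interval from -0.80 to 0.32 around -0.24, and it stood at -0.40 without HG-OE replicate 3, not called either time. CAT, the peroxisomal catalase, had 9.75, 9.24 and 8.84 CPM in HG-NC against 11.6, 11.3 and 16.4 CPM in HG-OE. Its rise was 0.50 (SE 0.132, adjusted p = 0.00612) with all libraries and 0.30 (adjusted p = 0.0105) without HG-OE replicate 3, so both values were called.

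Glutathione peroxidases use glutathione to reduce peroxides, and of the 4 tested 3 were higher and 1 was lower. Over all genes, 25.9% were called in each direction. GPX1 (ENSG00000233276.8, chromosome 3, 49357174 to 49358605), the ubiquitous cytosolic and mitochondrial form, had 192, 195 and 197 CPM in HG-NC against 293, 300 and 265 CPM in HG-OE. The rise of GPX1 by 0.55 (SE 0.0466, adjusted p = 4.24e-07) was as large as that of its region, since its 171 neighbours had a median of 0.51, and relative to them it stood at 0.046. GPX3, the secreted plasma form that in the body is made largely by the proximal tubule, had 142, 143 and 146 CPM in HG-NC against 182, 187 and 169 CPM in HG-OE. This rise, by 0.32 (SE 0.0443, adjusted p = 4.12e-05), was also below the median of its 81 neighbours, 0.37. GPX8, of the endoplasmic reticulum, rose by 0.30 (SE 0.0566, adjusted p = 5.65e-04), and its 33 neighbours went the other way with a median of -0.17. GPX4, which reduces lipid peroxides and restrains ferroptosis, had 500, 483 and 504 CPM in HG-NC against 468, 453 and 435 CPM in HG-OE. All HG-OE libraries were below all HG-NC libraries, and GPX4 fell by 0.13 (log2 fold change -0.13, SE 0.0386, adjusted p = 0.0104).

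The peroxiredoxins are thiol peroxidases fed mostly by thioredoxin. Of 6 tested, 5 were higher and none was lower, at 0.054 to 0.35 on the log2 scale with a median of 0.24. Of all genes tested, 25.9% were called in each direction, and the median log2 fold change over all genes was 0.011. PRDX1, the most abundant, had 1197, 1162 and 1173 CPM in HG-NC against 1294, 1327 and 1387 CPM in HG-OE, a rise of 0.18 (SE 0.0353, adjusted p = 6.72e-04). PRDX6, which takes its electrons from glutathione, had 384, 368 and 374 CPM in HG-NC against 453, 459 and 449 CPM in HG-OE. Its rise of 0.28 (SE 0.0353, adjusted p = 2.09e-05) came with neighbours at a median of -0.11. PRDX5 rose by 0.27 and PRDX4, the form of the endoplasmic reticulum, by 0.20. PRDX2 had 65.4, 60.2 and 64.4 CPM in HG-NC against 76.7, 69.4 and 95.3 CPM in HG-OE, so HG-OE replicate 3 was highest at 1.31 times the mean of the other HG-OE libraries. The rise of PRDX2 was 0.35 with that library and 0.21 without it, called both times. PRDX3, a mitochondrial member, had 277 ± 8.73 and 288 ± 3.88 CPM and was not called (0.054, 95% interval -0.028 to 0.14). The neighbours of PRDX1, PRDX2, PRDX3, PRDX4 and PRDX5 had medians of 0.079, -0.076, -0.13, -0.045 and 0.20.

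**Figure D3:**
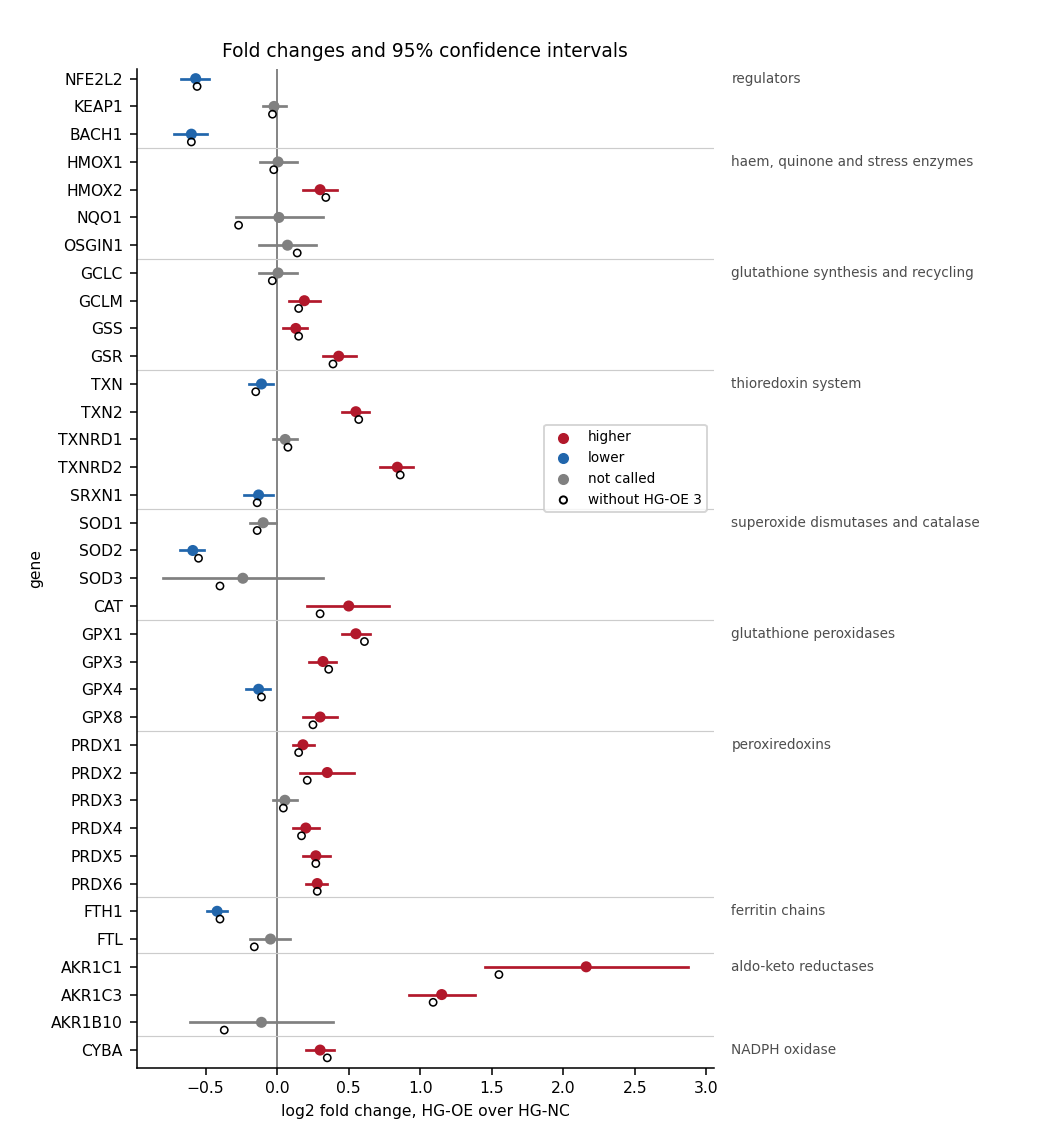
Log2 fold change of HG-OE over HG-NC (filled points) with its 95% confidence interval for the 36 genes tested, coloured red where called higher, blue where called lower and grey where not called, and the same value without HG-OE replicate 3 (open circles). AKR1C1 lies farthest to the right at 2.16, BACH1 farthest to the left at -0.60, and the open circles part from the filled points most for AKR1C1 (1.55), NQO1 (-0.27) and AKR1B10 (-0.37).

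Ferritin stores iron and keeps it from forming radicals, and of its chains FTH1 was called lower and FTL was not. FTH1 (ENSG00000167996.16, chromosome 11, 61959718 to 61967634), the heavy chain with the ferroxidase centre, had 4370, 4166 and 4175 CPM in HG-NC against 3187, 3247 and 3079 CPM in HG-OE. It was 0.748 times as high in HG-OE (log2 fold change -0.42, SE 0.0326, adjusted p = 2.14e-07), and its 217 neighbours had a median of 0.22, in the other direction. FTL, the light chain, had 1752, 1783 and 1806 CPM in HG-NC against 1575, 1615 and 1980 CPM in HG-OE. HG-OE replicates 1 and 2 were below and replicate 3 above all HG-NC libraries, with a log2 fold change of -0.047 (adjusted p = 0.572) over all libraries and -0.16 (adjusted p = 2.47e-05) without replicate 3. Of 7 other genes of iron handling, 2 were higher, the cytosolic aconitase and iron sensor ACO1 (0.70) and the ferritin autophagy receptor NCOA4 (0.13), and 2 were lower, the iron importer SLC11A2 (-0.41) and the transferrin receptor TFRC (-0.19). These calls were about as frequent as over all genes, of which 51.8% were called, 25.9% in each direction. Without HG-OE replicate 3, 2 were higher and 4 lower, and those added were the iron exporter SLC40A1 (0.027 with all libraries, -0.52 without that one) and the ferrireductase STEAP3 (-0.16 and -0.24), named after their values were seen.

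The aldo-keto reductases, which reduce carbonyls and steroids and are among the strongest NRF2 targets in human cells, held the largest changes. AKR1C1 (ENSG00000187134.14, chromosome 10, 4963253 to 4983283) had 49, 60 and 44 counts in HG-NC and 155, 170 and 423 in HG-OE, that is 1.91 ± 0.322 and 8.54 ± 5.12 CPM. All HG-OE libraries were above all HG-NC libraries, and 56.6% of the HG-OE counts came from replicate 3. The log2 fold change was 2.16 (SE 0.330, adjusted p = 9.45e-05), a ratio of 4.48, and without HG-OE replicate 3 it was 1.55 (adjusted p = 7.15e-11), a ratio of 2.93 in CPM. AKR1C3, a neighbour of AKR1C1, had 170, 177 and 155 counts in HG-NC and 385, 388 and 442 in HG-OE. It rose by 1.15 (SE 0.106, adjusted p = 1.03e-06), or 2.22 times, and by 1.09 without HG-OE replicate 3, so both values were called at 2-fold. The median of their 46 neighbours was 0.045. AKR1B10 had 60 to 74 counts in HG-NC and 66, 47 and 91 in HG-OE and was not called (-0.11, 95% interval -0.61 to 0.39, and -0.37 without HG-OE replicate 3).

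AKR1C2 and GPX2 were counted in HG-OE replicate 3 almost alone. AKR1C2 had 0 counts in all 3 HG-NC libraries and 3, 0 and 295 in the HG-OE libraries, so replicate 3 held 99.0% of the HG-OE counts. GPX2, the gastrointestinal glutathione peroxidase, had 0 in all HG-NC libraries and 3, 0 and 190 in HG-OE, with 98.4% in replicate 3. Against the 3 counts over the group that a total of 0 in HG-NC allows, HG-OE replicate 3 was at least 270-fold higher for AKR1C2 and at least 174-fold higher for GPX2, a limit for counting error only. These figures describe that library and not the condition, since HG-OE replicate 2 had 0 counts of both. The coding sequences of AKR1C1 and AKR1C2 in GENCODE are 98.0% identical over 969 bases, those of AKR1C1 and AKR1C3 91.4% and those of AKR1C2 and AKR1C3 91.0%. Stretches of 150 coding bases, the read length, are identical between AKR1C1 and AKR1C2 at 4.63% of positions. The alignment allowed mismatches, and how it split the reads between these genes was not tested. Of the 38 genes with a row, 16 had their highest CPM of all 6 libraries in HG-OE replicate 3 and 3 had their lowest there.

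**Figure D4:**
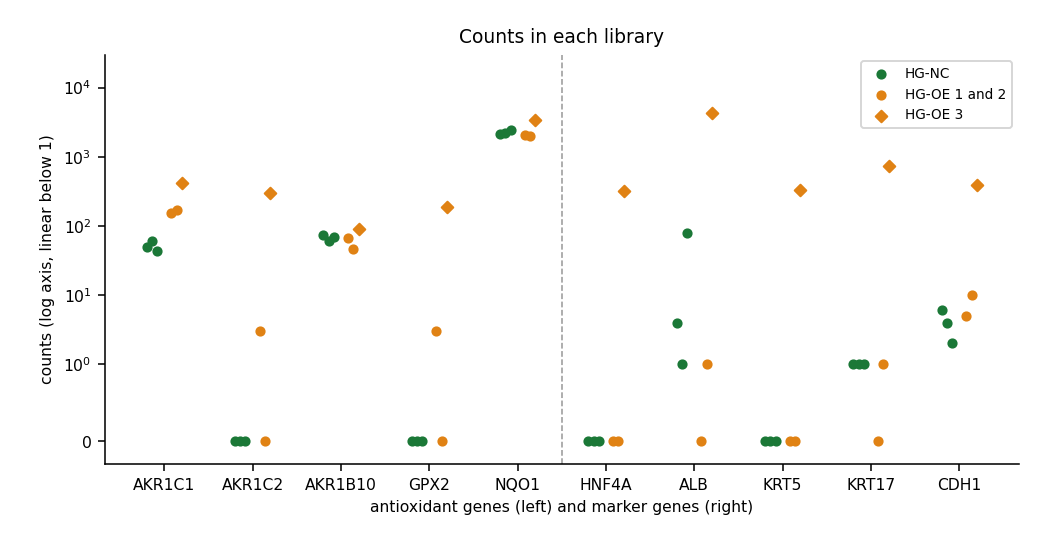
Counts in each library (log axis, linear below 1) of AKR1C1, AKR1C2, AKR1B10, GPX2 and NQO1 on the left and of the marker genes HNF4A, ALB, KRT5, KRT17 and CDH1 on the right, with HG-NC in green, HG-OE in orange and HG-OE replicate 3 as diamonds. The diamonds stand above every other point for all 10 genes, at 295 for AKR1C2 and 190 for GPX2, where the other libraries have at most 3 counts.

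Of the oxidant-producing NADPH oxidase, CYBA, the membrane subunit p22phox that stabilises the catalytic NOX proteins, was higher in HG-OE. Its CPM were 279, 271 and 285 in HG-NC and 358, 350 and 319 in HG-OE, without overlap, for a rise of 0.30 (SE 0.0454, adjusted p = 8.95e-05). Its 73 neighbours had a median of 0.13. Of 15 further genes of the NADPH oxidases, 6 passed the filter, and among them NOXA1 was higher (0.45, adjusted p = 0.0183). The catalytic genes NOX1, NOX3, NOX5 and CYBB had at most 4 counts in any library, and DUOX1 and DUOX2 at most 9, so their differences were not detectable at this depth.

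Grouped by what the 39 genes share beyond their role, the 15 tested genes known as NRF2 targets had a median log2 fold change of 0.012, with 5 called higher, 3 lower and 7 not called. Without HG-OE replicate 3 the median was -0.024, with 5 higher and 5 lower, as NQO1 and FTL were added to the genes called lower. Of 5 enzymes listed as mitochondrial, 3 were higher (TXN2, TXNRD2 and PRDX5), SOD2 was lower and PRDX3 was not called, with a median of 0.27. GPX1, described above as cytosolic and mitochondrial, was not in this list. Of the 4 enzymes of the secretory pathway, 3 were higher (GPX3, GPX8 and PRDX4) with a median of 0.25. Of the 5 tested selenoproteins, which carry the amino acid selenocysteine, 3 were higher (GPX1, GPX3 and TXNRD2) and GPX4 was lower, with a median of 0.32. Beside these stand the median of 0.011 and the 25.9% called in each direction over all genes.

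A further 26 NRF2 target genes were examined, and 10 were higher and 6 lower. The 16 called of 26 lie near the share of all genes called, 51.8%, and of well-counted genes called, 61.9%. Their median was 0.086 with all libraries and -0.019 without HG-OE replicate 3, where 10 were higher and 7 lower. The iron-binding nuclear protein PIR (0.65), the pentose phosphate enzyme TKT (0.61) and the glutathione transferase GSTP1 (0.56) rose the most. The cystine importer SLC7A11 (-0.57), which supplies cysteine for glutathione, malic enzyme ME1 (-0.33) and the membrane glutathione transferase MGST1 (-0.31) fell the most. TKT, like GPX1, had neighbours at a median of 0.51, and SLC7A11 had neighbours at -0.40. IDH1, picked out after its values were seen, was called higher at 0.31 with all libraries and was not called at 0.12 without HG-OE replicate 3. CBR3 (0.24 and 0.30, higher) and BLVRB (-0.12 and -0.17, lower), also picked out afterwards, were called without that library and not with it. Of 15 tested genes of other thiol and peroxide defence, 3 were higher and 5 lower. The thioredoxin-binding protein TXNIP, which is induced by glucose, had the lowest log2 fold change of all the lists. Its counts were 12542, 11960 and 12787 in HG-NC and 7773, 6964 and 5892 in HG-OE, which puts TXNIP at -0.98 (SE 0.0781, adjusted p = 2.77e-07). SESN2 (-0.47), GLRX2 (-0.27), PARK7 (-0.26) and GLRX3 (-0.18) fell as well, and the methionine sulfoxide reductases MSRB1 (0.75) and MSRB3 (0.42) and the copper chaperone of SOD1, CCS (0.58, and 0.41 without HG-OE replicate 3), rose. The 8 called of 15 are again near the 51.8% of all genes.

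**Figure D5:**
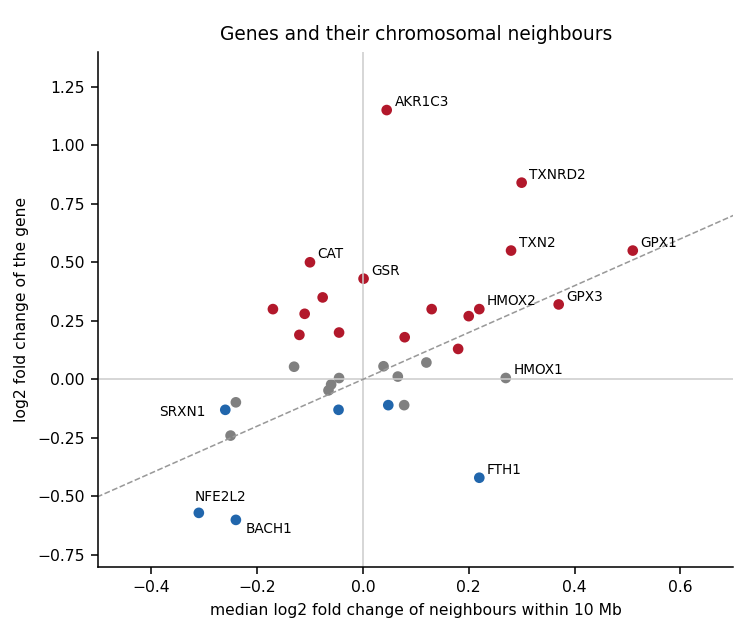
Log2 fold change of each gene against the median of its well-counted neighbours within 10 Mb, for 34 genes (SOD2 has no position in the annotation used and AKR1C1, at 2.16, lies outside the plot), coloured red where called higher, blue where called lower and grey where not called, with the dashed line marking equal values. GPX1 and GPX3 lie near the line, TXNRD2, AKR1C3, CAT and GSR well above it, and FTH1 well below it.

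Neighbours on the chromosome moved with several of these genes. Over the 35 genes with a position, the median log2 fold change relative to neighbours was 0.072, against 0.10 for the 36 before this step. GSS and GPX3, called higher, and SRXN1, called lower, changed sign, to -0.057, -0.047 and 0.13. The fall of FTH1 grew from -0.42 to -0.64, the rise of PRDX6 from 0.28 to 0.39 and that of GPX8 from 0.30 to 0.47. The difference of whole regions between the groups and the difference of a single gene within them cannot be told apart by a gene's own fold change.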

How the data were processed

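RNA-seq of poly(A) RNA was compared between 3 HG-NC and 3 HG-OE libraries, grouped by their labels. Glucose dose, time and the lentiviral vector are from the study's methods, and the labels speak of a control plasmid. The authors trimmed the reads and aligned them to GRCh38 with HISAT2 (named in the submitters' processing notes), and counted uniquely mapped read pairs on each gene, which gives the deposited counts, without normalization. FPKM values from the same counts were deposited as well and are rounded to 2 decimals. A batch correction (ComBat_seq) is named in the methods, and its use on these counts is not stated.

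The 39 genes and all lists were chosen with earlier results of these data known. Tests used edgeR 4.0.16 in R 4.3.3 (TMM, default low-count filter, quasi-likelihood test, Benjamini-Hochberg adjustment over 17142 genes). CPM are TMM-scaled counts. Alternatives were DESeq2 1.42.0 (size factors, Wald test), limma 3.58.1 on log2(FPKM + 1) and log2(FPKM + 0.1), which understates changes of low genes, other filters, a replicate block, each library left out, and chromosome medians removed. A removal of the median of neighbours (mean of at least 100 counts, within 10 Mb) was chosen after seeing the data. The steps were tested on simulated data. All 39 genes are named, with up to 3 called genes per direction from each other list and genes of the marker lists, and MAFK, IDH1, CBR3, BLVRB, SLC40A1, STEAP3, PARK7, GLRX3 and the NADPH oxidase genes at low counts were added after their values were seen. Some genes of these lists that the rule would name are not reported here. Positions are from GENCODE release 44, matched by gene identifier. A count of 0 allows 3 counts. Totals were 25507595 to 29444841 read pairs per library.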

Additional observations from a re-analysis of the deposited data

How the results depend on the processing

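The number called higher was 15 to 19 in the 14 refits, against 18. Of the 25 called genes, 18 kept their call in every refit and none changed direction in a refit. The others were GSS, TXN, SRXN1, CAT, GPX4, PRDX2 and AKR1C1, of which CAT and AKR1C1 lost the call with limma on log2(FPKM + 1) without a filter and in no other refit. The cause was not tested where none is given.

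With each library left out in turn, 4 to 10 genes were called lower, against 7. The lowest number came without HG-NC replicate 3, and the highest without HG-OE replicate 3, where NQO1, SOD1 and FTL were added. The median of all genes described was 0.10 to 0.14 with each library left out. It was 0.14 without the low-count filter, 0.15 by the Wald test of DESeq2, 0.13, 0.14 and 0.13 by limma on log2(FPKM + 1), on log2(FPKM + 0.1) and on log2(FPKM + 1) without a filter, all with 38 genes, 0.063 with chromosome medians and 0.072 with neighbour medians removed. At least 2-fold were 4 genes without the low-count filter, which adds AKR1C2 and GPX2, and 0 by limma on log2(FPKM + 1), with and without its filter, a pseudocount that shrinks low genes. The 15 other NADPH oxidase genes had 2 calls, 0 to 3 with each library left out (0 without HG-NC replicate 3 or HG-OE replicate 1) and 1 without the low-count filter, by the Wald test and by limma without a filter. With each library left out, 3 to 6 of the genes of iron handling were called, against 4. HNRNPF stood at 0.39 relative to its neighbours.

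Changes of sign among genes near 0 were those of HMOX1 (-0.026 to 0.05 with each library left out, -0.0092 without the filter, -0.0093, -0.0099 and -0.0093 by limma), GCLC (-0.034 to 0.062, -0.0095, -0.008, -0.011 and -0.008) and NQO1 (-0.27 to 0.14, -0.0055, -0.043, -0.046 and -0.043). With each library left out, SOD3 ran from -0.43 to 0.066, OSGIN1 from -0.042 to 0.14, FTL from -0.16 to 0.012 and AKR1B10 from -0.37 to 0.096. Relative to neighbours, GSS stood at -0.057, SRXN1 at 0.13 and GPX3 at -0.047.

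The replicate numbers were shared by both groups. Libraries with the same number did not deviate together (r across genes = -0.0273, 0.0301 and -0.000993), so the numbers were not taken as pairs. With the replicate number as a block, 18 genes were higher and 7 lower, and NQO1 stood at -0.022.

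Depth limits SOD3, AKR1C1, AKR1C2, AKR1B10 and GPX2, which had at most 423 counts in any library.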
